A study of Mus musculus with 4 samples.

Results

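The 10 genes described here are germ line genes: Dazl, Ddx4, Mael, Asz1, Morc1, Sycp3, Stk31, Slc25a31, Taf7l and Tex101. They are grouped as genes that promoter methylation is known to keep silent outside the germ line. They were selected on 2 measures of these same arrays, the level against the array median and the difference of one line (line 3) from the other arrays, so those measures are given below as descriptions without a test. The 10 genes were read by 13 probe sets, each annotated to a single gene, among 18193 genes on the arrays. Methylation itself was not measured, so the values below bear on RNA levels only.

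Germ line genes of this kind have promoters rich in CG dinucleotides, which carry DNA methylation in most somatic cells. DNA methyltransferases keep the mark, and in embryonic stem cells a variant Polycomb complex, PRC1.6, adds a second layer of repression. PRC1.6 holds the E-box-binding pair MGA and MAX and the E2F6 protein, which binds E2F sites. Pluripotent cells are known to transcribe some of these genes at a low level, and loss of DNA methylation or of PRC1.6 raises many of them.

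The arrays held total RNA of 3 NT-ESC lines and of 1 iPSC clone of the mouse, on 1 array each. The NT-ESC lines (labelled NT-1, NT-2 and NT-3 and called lines 1, 2 and 3 here) are embryonic stem cell lines from cloned blastocysts, made by nuclear transfer with the iPSC clone as the nuclear donor. The iPSC clone (labelled Adeno-1) was reprogrammed from tail-tip fibroblasts by adenoviral vectors, so every array traces back to a single clone. All cells were grown in serum with LIF on irradiated mouse embryonic fibroblasts, most of which a short replating step was meant to take away. In the labels the lines are numbered subclones, and nothing there tells if each had its own cloned embryo. SDs and p-values therefore measure only the spread between these arrays, which may be technical.

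A level below is a log2 intensity with the mean of each array set to an assumed 7, because the deposited values gave each probe set's log intensity only relative to its array's mean. Differences are on the same log2 scale. Differences would be 14.3% smaller had the mean been 6. They would be 12.3% greater at 7.86, the mean that puts the brightest probe set at 16. The 10 pluripotency markers listed for the check, among them Pou5f1, Nanog and Sox2, stood at 10.83 or above on every array. Col1a2, the brightest of the fibroblast and feeder markers listed, stood at 10.83 in line 3, 10.81 in line 1, 11.11 in line 2 and 10.80 in the clone. Other markers of that list were far dimmer, such as Dcn at 7.28 to 7.31 and Lum at 5.58 to 5.84 over the arrays. Line 3 stood apart from the other arrays in this series: 22 genes were at least 2-fold lower and 1 was at least 2-fold higher there than on each other array, against 0 for every other array, and genes of chromosome 8 had a median difference of 0.18 in that line. The 22 become 13 with an assumed mean of 6 and 16 with the mean of each gene's probe sets. None of the 10 germ line genes lies on chromosome 8.

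The sequences that carry the promoter features are shown first. RefSeq (assembly GRCm38.p6) gave a start for 9 of the 10 genes, with 2 starts for Stk31, and Morc1 is named only. The 250 bases upstream are printed 5′ to 3′ on the strand of the gene for the 3 genes that were lower in line 3 (Mael, Taf7l and Slc25a31) and for 3 that were not (Ddx4, Sycp3 and Dazl). Capitals mark the E-box CACGTG, the site of MGA and MAX, and the E2F core GCGGGA, which reads TCCCGC on the other strand. The E-box reads the same on both strands, and no 2 matches overlapped. Both motifs were chosen with the sequences in view.
Mael, chr1:166238745-166238994, minus strand: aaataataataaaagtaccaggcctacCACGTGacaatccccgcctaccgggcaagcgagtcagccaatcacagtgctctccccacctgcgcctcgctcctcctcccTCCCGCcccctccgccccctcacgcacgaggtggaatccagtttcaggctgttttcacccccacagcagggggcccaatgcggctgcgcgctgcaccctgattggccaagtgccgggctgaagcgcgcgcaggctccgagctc
Taf7l, chrX:134476491-134476740, minus strand: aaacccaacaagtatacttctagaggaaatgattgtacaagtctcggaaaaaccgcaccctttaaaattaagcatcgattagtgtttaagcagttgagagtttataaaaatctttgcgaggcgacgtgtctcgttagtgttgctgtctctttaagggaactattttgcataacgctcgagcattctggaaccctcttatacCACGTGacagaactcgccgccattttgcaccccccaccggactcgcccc
Slc25a31, chr3:40708621-40708870, plus strand: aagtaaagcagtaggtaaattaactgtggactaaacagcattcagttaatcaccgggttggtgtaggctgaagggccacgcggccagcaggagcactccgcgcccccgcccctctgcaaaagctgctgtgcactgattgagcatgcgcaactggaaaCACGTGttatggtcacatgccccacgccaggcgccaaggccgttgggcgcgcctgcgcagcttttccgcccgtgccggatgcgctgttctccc
Ddx4, chr13:112652311-112652560, minus strand: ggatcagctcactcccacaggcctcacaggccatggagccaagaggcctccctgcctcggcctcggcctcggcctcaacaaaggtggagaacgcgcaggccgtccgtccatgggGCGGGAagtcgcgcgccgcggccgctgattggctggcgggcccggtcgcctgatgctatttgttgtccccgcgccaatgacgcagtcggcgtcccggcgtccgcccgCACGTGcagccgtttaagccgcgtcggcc
Sycp3, chr10:88459337-88459586, plus strand: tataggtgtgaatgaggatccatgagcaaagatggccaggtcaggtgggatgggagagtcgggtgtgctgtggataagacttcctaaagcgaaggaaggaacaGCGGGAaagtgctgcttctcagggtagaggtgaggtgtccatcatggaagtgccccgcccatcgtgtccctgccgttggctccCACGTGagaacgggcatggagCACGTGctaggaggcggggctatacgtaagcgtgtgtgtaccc
Dazl, chr17:50293621-50293870, minus strand: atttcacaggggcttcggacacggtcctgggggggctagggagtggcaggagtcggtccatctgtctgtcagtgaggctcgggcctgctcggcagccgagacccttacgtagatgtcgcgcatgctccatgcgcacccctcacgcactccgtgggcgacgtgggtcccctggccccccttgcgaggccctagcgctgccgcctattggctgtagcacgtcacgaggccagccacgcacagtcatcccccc

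The E-box was present upstream of 6 of the 9 genes, Mael, Taf7l, Slc25a31, Ddx4, Stk31 and Sycp3, and Sycp3 had a pair of them. By gene this is 66.7%, against 6.86% of all 27025 genes with a RefSeq window of the same length and 12 of 41 other germ line genes (29.3%). The windows of Stk31 overlap and share 1 E-box, so by window, where 7 of 10 held it, that site is counted for each start. Among genes with a window whose CG ratio was at or above the lowest one here, the share was 10.2%. The distance of the E-box from the annotated start ran from 29 bases in Ddx4 to 223 bases in Mael. It lay 49 bases before the start in Taf7l and 93 in Slc25a31. The E2F core was found upstream of Mael, Ddx4 and Sycp3, which is 30% of the windows, against 16.9% of all windows, 30.4% of windows of other germ line genes and 38.6% of windows with a CG ratio at or above the lowest one here. All 3 of these windows also held the E-box. This combination was found in 1.45% of all windows and 7.14% of those of other germ line genes. Among windows with a CG ratio at or above the lowest one here, its share was 3.65%. Dazl, Asz1 and Tex101 held neither motif in this window. Because both motifs were chosen with these sequences in view, the shares describe the windows and test nothing. A match is only a match of letters, and binding was not measured.

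CG dinucleotides were frequent in these windows. The median was 18 in 250 bases, against 6 over all windows and 12 over windows of genes on the arrays. Ddx4 had 31, which 5.19% of all windows reach, and Sycp3 had 12, which 33.5% reach. The ratio of observed to expected CG had a median of 0.82, against 0.374 over all windows, and ran from 0.639 in Tex101 and Sycp3 to 1.13 in Taf7l. Taf7l combined that ratio with the lowest GC content of the 10 windows, 44.8%. Of the genes that were lower in line 3, Mael at 0.75 and Slc25a31 at 0.812 lay inside the range of the members that were not, and Taf7l lay above it.

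**Figure D1:**
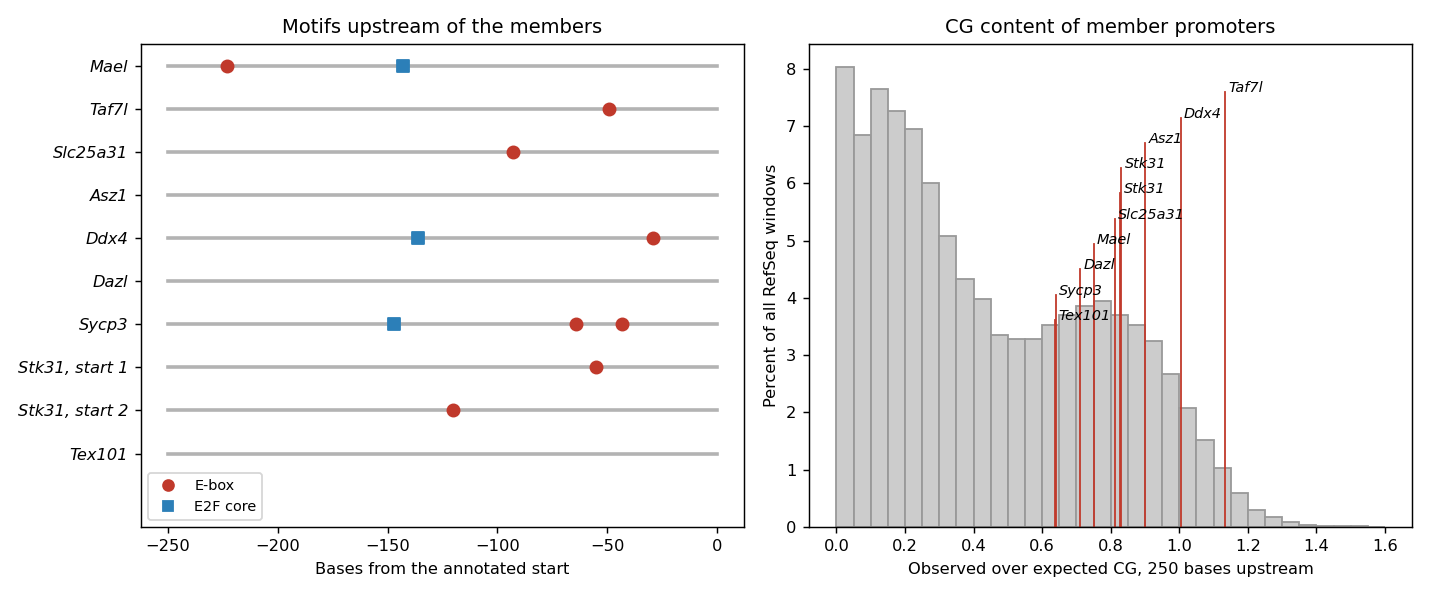
Left, positions of the E-box (circles) and the E2F core (squares) in the 250 bases before each annotated start, with the distance from the start in bases on the x axis and a line for each of the 10 windows. Right, the ratio of observed to expected CG on the x axis and the percent of all 32851 RefSeq windows on the y axis (bars), with each of the 10 windows of 9 genes marked by a vertical line whose height only separates the names; these windows lie at or above 0.639, while the median of all windows is 0.374.

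Of the 10 genes, 7 were at or above the array median on all 4 arrays, where the median level was 6.82 to 6.84. The share over all genes was 62.4%, and the rule that chose the members used this measure. The array median was taken over all probe sets, whereas each gene was read by its brightest probe set. Just inside lay Asz1, at 6.89 to 7.01, and Stk31, at 7.01 to 7.15. Tex101 lay outside, at 6.37 to 6.49 on the 4 arrays. Taf7l was above the median in lines 1 and 2 and in the clone and below it in line 3, and Slc25a31 was below it on every array. Detection calls were not used here, so a position on either side of the median does not by itself separate expressed from silent genes.

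Morc1, Mael and Asz1 act in transposon silencing. Morc1 encodes an ATPase needed to silence transposons in the male germ line. Its level was 8.53 in line 3, against 9.87 in line 1, 9.87 in line 2 and 9.87 in the clone. Lines 1 and 2 had the same value and the clone lay lower by about 1 step of the last deposited decimal, which is worth 0.0066 here, so these 3 arrays had an SD of 0.00395. Line 3 lay 1.34 below their mean, which is 2.52-fold (2.21-fold with an assumed mean of 6 and 2.84-fold with the brightest probe set at 16). In bulk RNA, fewer cells that express a gene and less RNA per cell cannot be told apart. A single probe set read Morc1, and its name carries the suffix that the manufacturer uses for probe sets that detect several transcripts of a gene.

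Mael encodes maelstrom, a protein of the piRNA pathway that silences transposons in the testis. Its level was 7.89 in line 3, against 8.74 in line 1, 8.94 in line 2 and 9.19 in the clone. Line 3 was the lowest array, by 0.85 below the next one, and the clone was the highest. The difference of line 3 from the mean of the other arrays was -1.06, where those arrays had an SD of 0.22. Asz1, which encodes a scaffold of the germ granules between mitochondria, stood at 7.01 in line 3, against 6.95, 6.89 and 6.93 in lines 1 and 2 and the clone. The second Asz1 probe set stood at 5.89, 5.78, 5.83 and 5.82 on the same arrays, and line 3 was higher than the mean of the others by 0.09 in both. Among the 3 genes of transposon silencing, Morc1 and Mael were lower in line 3 and Asz1 hardly differed. The median absolute difference of line 3 over all genes was 0.08.

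Dazl and Ddx4 are the RNA regulators of the list. Dazl encodes an RNA-binding protein that promotes translation in germ cells. Its level was 8.39 in line 3, against 8.18 in line 1, 8.31 in line 2 and 8.20 in the clone, a spread of 0.21 over the 4 arrays. The second Dazl probe set stood at 7.92, 7.61, 7.84 and 7.69 on the same arrays, so both put line 3 highest and line 1 lowest. Ddx4, the mouse homologue of fly vasa, encodes an RNA helicase of germ granules. Its level was 8.98 in line 3, 9.08 in line 1 and 8.996 in line 2, against 8.70 in the clone, and here it was the clone that lay apart.

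Sycp3 and Stk31 were the meiotic and spermatogenic members. Sycp3 encodes a protein of the axial elements of the synaptonemal complex. Its level was 7.80 in line 3, 7.78 in line 1 and 7.84 in line 2, against 7.56 in the clone, so all 3 lines lay above the clone. Stk31 encodes a testis protein with a Tudor domain and a kinase-like domain. Its brighter probe set stood at 7.01 in line 3, against 7.10, 7.15 and 7.08 in lines 1 and 2 and the clone, where line 3 was lowest. The other Stk31 probe set stood at 7.04, 6.97, 7.07 and 6.93 on the same arrays, where the clone was lowest, so the probe sets disagreed on the order. The brighter one carries the suffix for probes that can also bind other sequences.

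The remaining members are testis-enriched genes with other functions. Taf7l, an X-linked relative of the TFIID subunit Taf7, stood at 6.55 in line 3, against 7.31 in line 1, 7.39 in line 2 and 7.23 in the clone. Line 3 was lower than the mean of the others by 1.70-fold, and the other arrays had an SD of 0.08. Slc25a31 encodes the ADP/ATP carrier of male germ cell mitochondria, also called Ant4. Its level was 5.55 in line 3, against 6.09, 6.12 and 6.06 in lines 1 and 2 and the clone, a difference of -0.54 among values that all lay under the array median. Tex101, a surface glycoprotein of germ cells, stood at 6.49 in line 3, against 6.40, 6.37 and 6.41 on the other arrays, also under the median.

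**Figure D2:**
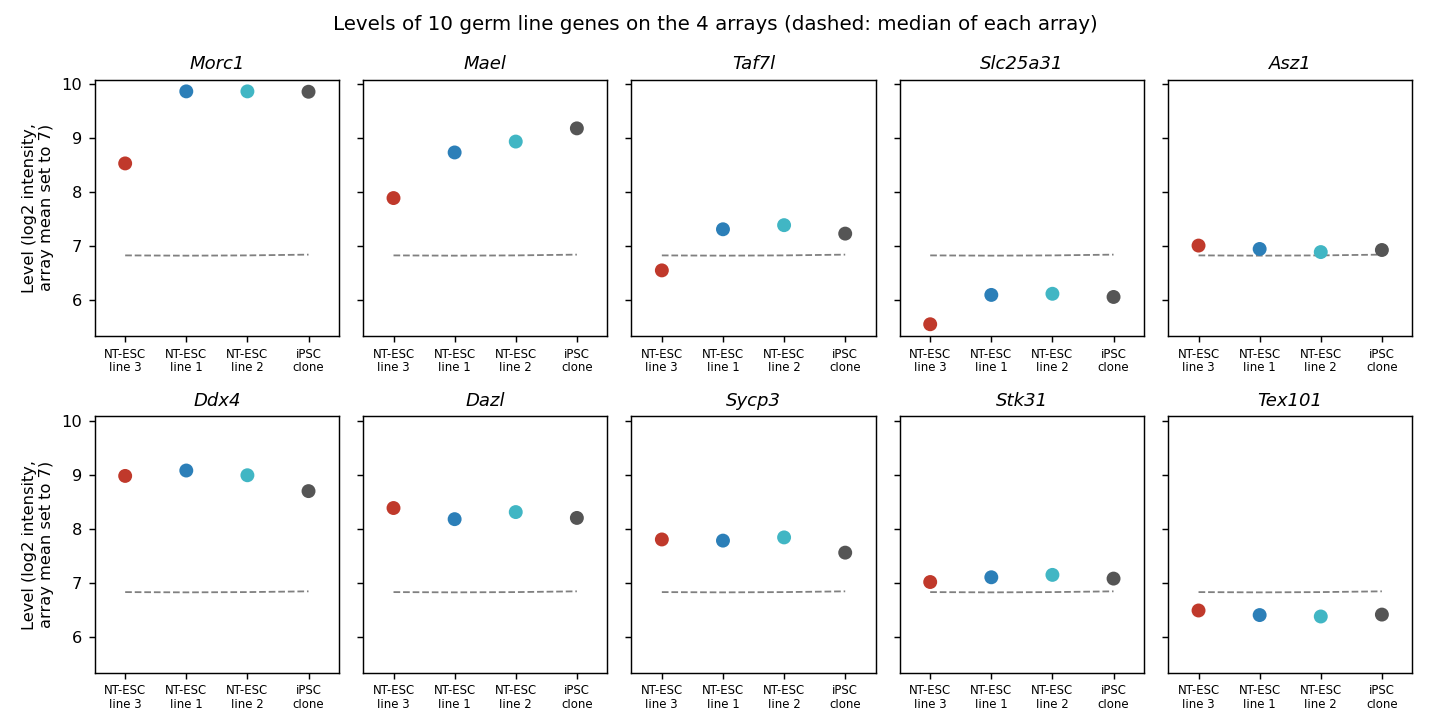
Level of each of the 10 germ line genes (y axis, log2 intensity with the array mean set to 7) on the 4 arrays (x axis), 1 point per array, with the median of each array as a dashed line. Morc1, Mael, Taf7l and Slc25a31 have their lowest point in line 3, by gaps of 0.51 to 1.33, whereas the other 6 genes span less than 0.4 over the arrays.

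Line 3 was lower by more than 0.5 in 4 members and within 0.2 of the mean of the other arrays in 6. The median over the 10 members was -0.02, and -0.01 over all genes. By the count of genes at least 1.5-fold lower than on each other array, with the brighter side at or above the median level, line 3 had Morc1, Mael and Taf7l among 8 members, against 0.461% of 11923 genes. At 2-fold it had Morc1, against 0.185%. No member was 1.5-fold higher there, against 0.226% of genes. Line 3 was the lowest of the 4 arrays for 5 members (28.8% of all genes) and the highest for 3 (25.7%). These counts rest on the contrast by which the members were chosen, and nothing is read from them. With an assumed mean of 6, Taf7l fell short of 1.5-fold by less than 1 step of the last deposited decimal.

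Markers of other cell types were read beside these values. Of 13 fibroblast and feeder markers 12 were measured, and 10 were at or above the median on all arrays, beside 62.4% of all genes. The linear intensities of the 12 measured fibroblast markers summed to 5287 in line 3, against 5281 in line 1, 6158 in line 2 and 5189 in the clone. Line 3 lay inside the range of the other arrays. The 10 markers of gonadal somatic cells, of which 3 were at or above the median on all arrays, had a mean level of 6.66 in line 3, against 6.59, 6.60 and 6.71 on those arrays. The 10 pluripotency markers had a median difference of 0.002 in line 3, and Fgf4 among them differed by -0.45, with 10.83 in line 3, against 11.15, 11.43 and 11.24 on those arrays.

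Other germ line genes were read from 3 lists, with the member Mael left out. Dnmt3l is counted here as a piRNA gene and again below as a gene of DNA methylation. The lists gave 51 measured genes. Of these, 30 were at or above the array median on all 4 arrays, beside 62.4% of all genes. Among the 33 whose brighter side reached the median, Dppa3 was at least 1.5-fold lower in line 3 than on each other array and Meioc at least 1.5-fold higher. By the same counts, 0.461% of 11923 genes were lower and 0.226% higher. Dppa3, an oocyte and primordial germ cell factor, stood at 8.55 in line 3, against 9.88, 9.50 and 9.32 in lines 1 and 2 and the clone. Meioc, which keeps cells in meiotic prophase, stood at 7.77 in line 3, against 6.87, 7.01 and 6.93. In the list of piRNA genes, Gtsf1, a zinc finger protein of that pathway, differed by -0.52 and Tdrd12, a Tudor domain protein chosen after its value was seen, by -0.66. The meiotic gene Tex15 differed by 0.59, and it lies on chromosome 8. Others went the opposite way, such as Piwil2 of the piRNA list by 0.34 and the meiotic gene Smc1b by -0.47. Line 3 was lowest for 5 and highest for 3 of the 17 piRNA genes. For the 22 meiosis genes it was lowest for 8 and highest for 12. Over all genes these shares were 28.8% and 25.7%. The median difference in line 3 was -0.04 over 17 piRNA and transposon silencing genes, 0.10 over 22 meiosis genes and -0.0007 over 12 genes of germ cell specification.

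The machinery that represses such genes was listed as well. Of the 10 genes of DNA methylation, 5 were lowest in line 3 and 1 was highest, beside 28.8% and 25.7% of all genes, with a median difference of -0.09. Dnmt3b, a de novo DNA methyltransferase, stood at 10.81 in line 3, against 11.46 in line 1, 11.27 in line 2 and 11.54 in the clone. Dnmt3a, the other de novo enzyme, stood at 10.50 in line 3 and in the clone and at 10.02 in lines 1 and 2. Dnmt3l, their cofactor in germ cells, stood at 11.78 in line 3, against 11.53, 11.90 and 11.99. Among 19 genes of PRC1.6 and of H3K9 methylation, 9 were lowest in line 3 and 3 were highest, beside the same shares of all genes, with a median of -0.05. Mga stood at 9.44 in line 3, against 9.61, 9.46 and 9.20 in lines 1 and 2 and the clone. E2f6 stood at 8.84 in line 3, against 8.95, 8.89 and 8.996. Dnmt1, which copies methylation to new strands, stood at 10.77 in line 3, against 10.91, 11.05 and 10.82. E2f6, Dnmt1 and Tfdp1 were added after their values were seen. Pcgf6, the subunit that defines the complex, differed by -0.20. Cbx1, an HP1 protein that binds methylated H3K9, differed by -0.50. Tfdp1, the dimer partner of E2F proteins, lies on chromosome 8 and had the largest difference of the list, 0.50, with 11.63 in line 3, against 11.15 in line 1, 11.05 in line 2 and 11.19 in the clone. None of these genes was 1.5-fold apart from each other array in line 3. Whether the levels of these genes have a part in the members' levels was not tested.

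**Figure D3:**
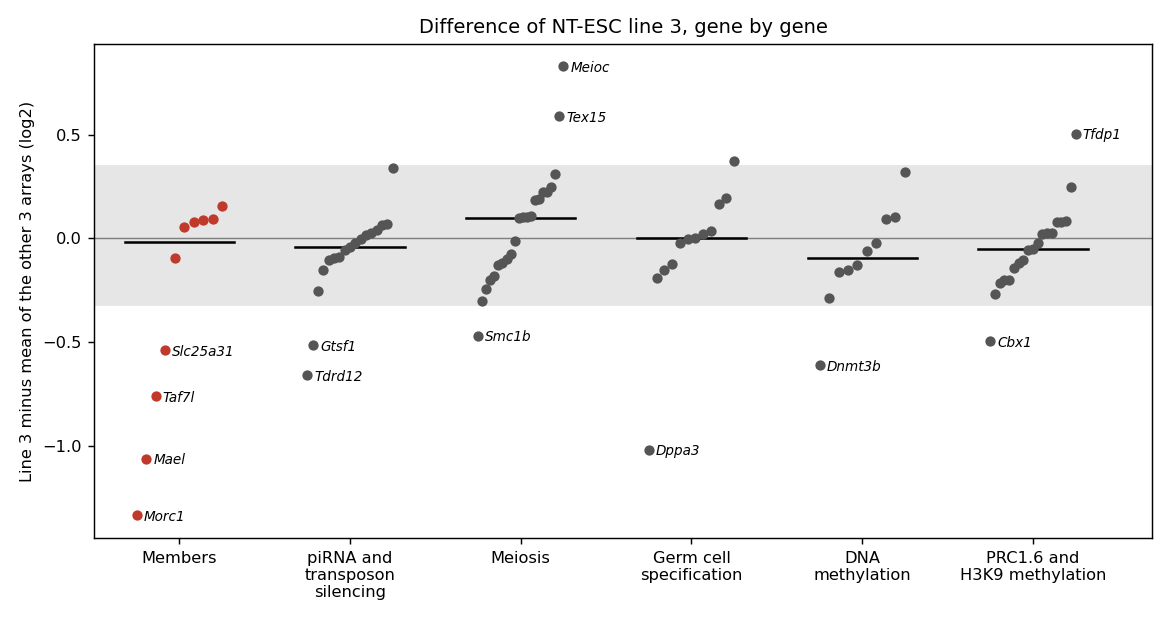
Line 3 minus the mean of the other 3 arrays (y axis, log2) for the 10 members, for the other germ line lists and for the lists of DNA methylation and of PRC1.6 with H3K9 methylation (x axis), 1 point per gene, with the list's median as a bar. The shaded band holds the central range of all 18193 genes, from -0.32 to 0.35, and genes beyond 0.45 in either direction are named; Morc1, Mael, Taf7l and Slc25a31 lie below the band, and the other 6 members inside it.

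By a fixed rule, the genes with the pattern most like that of Morc1, the member with the widest range, were Apoa2, Manba, Rragd, Rab3gap2 and Gpa33. Likeness was the Euclidean distance between levels centred on each gene's mean over the 4 arrays, taken over 11746 other genes with a mean at or above the median, and it ran from 0.134 for Apoa2 to 0.221 for Gpa33. Apoa2, a lipoprotein of the liver, stood at 7.58 in line 3, against 9.08, 8.95 and 9.05 in lines 1 and 2 and the clone. Manba, a lysosomal mannosidase, stood at 8.62 in line 3, against 9.93, 9.96 and 9.78. All 5 were lower in line 3, with differences of -1.26 to -1.51. Apoa2, Rab3gap2 and Gpa33 lie on chromosome 1, as does the member Mael. Manba lies on chromosome 3, Rragd on 4 and Morc1 itself on 16. Whether chromosomal position has a part in these levels was not tested.

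The design set the NT-ESC lines beside their parental iPSC clone. Ddx4 averaged 9.02 ± 0.05 in the NT-ESC lines (SD, n = 3), against 8.70 in the clone, a difference of 0.32 ± 0.08 (SE). Sycp3 averaged 7.81 ± 0.03 (SD, n = 3), against 7.56, a difference of 0.25 ± 0.08 (SE). Both were higher in all 3 lines, which held for 24.7% of all genes, and Mael was lower in all 3 lines, which held for 26.7%. Ddx4 and Sycp3 had an unadjusted p under 0.05, as did 5.53% of all genes. Neither passed over all genes (limma, Benjamini-Hochberg adjusted p = 0.856 for each). Over the 18193 genes limma called 0 (0%), and 629 were higher and 377 lower at an unadjusted p under 0.05.

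Mael averaged 8.52 ± 0.56 in the NT-ESC lines (SD, n = 3), against 9.19 in the clone, a difference of -0.66 ± 0.39 (SE) that did not pass (limma, Benjamini-Hochberg adjusted p = 0.861). Without line 3 the difference was -0.35 ± 0.12 (limma, Benjamini-Hochberg adjusted p = 0.609), so line 3 moved the value by more than 1.5 times. Without that line Ddx4 differed by 0.34 ± 0.07 and Sycp3 by 0.25 ± 0.07, each with an adjusted p of 0.609 by limma. Morc1 averaged 9.43 ± 0.77 in the NT-ESC lines (SD, n = 3), against 9.87 in the clone, and the difference of -0.44 ± 0.54 was 0.007 ± 0.06 without line 3. Taf7l differed by -0.15 ± 0.33, and by 0.12 ± 0.07 without line 3. For Slc25a31 the values were -0.14 ± 0.23 and 0.05 ± 0.06. Dazl, Asz1, Stk31 and Tex101 differed by 0.01 to 0.09 with the 3 lines. The median over the members was 0.01, and -0.003 over all genes.

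The clone's array had the narrowest spread of relative log intensities, with an SD of 0.278, against 0.281 to 0.282 in the lines. With quantile normalization, which makes the spreads equal, Ddx4 differed by 0.28 and Sycp3 by 0.24. The contrast has 1 array on the side of the clone, whose own spread was taken to equal that of the lines.

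**Figure D4:**
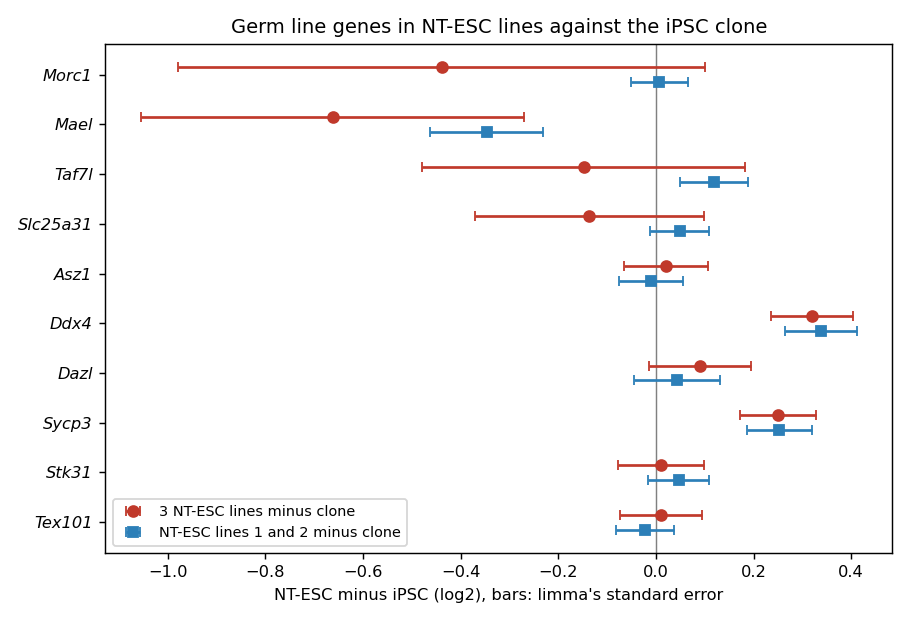
Difference between NT-ESC lines and the iPSC clone for each germ line gene (x axis, log2, with limma's standard error as bars), with all 3 lines (circles) and with lines 1 and 2 only (squares). Ddx4 and Sycp3 keep the same place with and without line 3, Mael moves to -0.35, and Morc1 moves to 0.007.

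None of the other listed genes passed in either direction between the lines and the clone (limma, Benjamini-Hochberg adjusted p of 0.856 or above). Of the 51 other germ line genes, 7 were higher and 16 lower in all 3 lines, beside 24.7% and 26.7% of all genes, with a median difference of 0.01. Tfap2c, a transcription factor of primordial germ cell specification, averaged 9.05 ± 0.18 in the lines (SD, n = 3), against 8.49 in the clone. Of the others taken from that list by difference, Kit averaged 9.70 ± 0.17, against 9.37, and Prdm1 6.66 ± 0.08, against 6.97. Tex19.1, a testis and stem cell gene that limits transposons and is itself silenced by promoter methylation in somatic cells, averaged 10.65 ± 0.11, against 11.07. Gtsf1 averaged 7.91 ± 0.24, against 8.36. Dmc1, the meiotic recombinase, averaged 7.61 ± 0.05, against 7.90. The other meiosis genes taken by difference were higher in the lines. Meioc averaged 7.22 ± 0.48, against 6.93, and differed by 0.02 without line 3. Meiob, under the median on every array, averaged 5.57 ± 0.09, against 5.29. Of the 10 DNA methylation genes 1 was higher and 3 were lower in all 3 lines, and of the 19 PRC1.6 and H3K9 methylation genes 3 were higher and 4 lower, beside those same shares. Mga averaged 9.50 ± 0.09, against 9.20 in the clone.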

How the data were processed

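RNA of 3 NT-ESC lines and 1 iPSC clone was turned into biotinylated cRNA for 1 array each, per the labels' protocols. The deposited log2 values were no log2 intensities: 2 raised to the value averaged 1 on every array, the form of a log intensity divided by the mean log intensity of its array. The normalization software is not given in the sources used here. Levels are this ratio times an assumed mean of 7.

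Of 45101 probe sets, 64 were controls; 34945 had 1 gene, 932 several and 9160 none, per the platform annotation, and the IDs of 34741 were found in the RefSeq table (GRCm38.p6). For each of the 18193 genes the probe set with the greatest mean level was kept. NT-ESC lines were compared with the clone using lmFit and eBayes of limma 3.58.1 (R 4.3.3, two-sided, 2 residual and 3.57 prior degrees of freedom). The Benjamini-Hochberg threshold was 0.05 over all genes. The fit was tried on simulated arrays that gave the clone the same spread as the lines, so that assumption was not tested. Line 3 was set beside the other arrays without a test. The files name no batch, and 4 arrays limit the precision.

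The members, lists, motifs and tests were chosen with earlier results of these data known. From each list the rule for naming genes took those past the test and the 3 with the highest mean. It also took the 3 with the largest difference between lines and clone. The text gives some of the genes so chosen. Dppa3 and Meioc also answer a count. Tdrd12, Piwil2, Smc1b, E2f6, Dnmt1, Tfdp1 and Fgf4 were added after their values were seen. Alternatives were other probe set rules, scales, normalization, filters and priors, and leaving out each array.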

Additional observations from a re-analysis of the deposited data

How the results depend on the processing

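Under the 11 other settings of the comparison between NT-ESC lines and clone, limma called 0 genes and 0 members, with 514 to 1929 genes at an unadjusted p under 0.05. The smallest adjusted p of a member was 0.609, without line 3. Differences of single members kept their sign except when a line was left out. Over these 3 settings Morc1 ran from -0.66 to 0.00684, Taf7l from -0.301 to 0.119, Slc25a31 from -0.234 to 0.0485, Asz1 from -0.00954 to 0.0507, Tex101 from -0.0222 to 0.0336 and Stk31 from -0.0195 to 0.0468. Without line 3, Morc1, Taf7l, Slc25a31, Asz1 and Tex101 changed sign, and Stk31 did without line 2; the causes were not tested. Morc1, Mael, Taf7l and Slc25a31 were lower in line 3 than the mean of the other arrays under all 7 settings tried, while without the clone Ddx4 (-0.06) and Sycp3 (-0.01) changed sign there. With an assumed mean of 6, which shrinks every difference, 13 genes instead of 22 were at least 2-fold lower there than on each other array. Members at least 1.5-fold lower were then 2 instead of 3. The one lost, Taf7l, missed that limit by less than 1 step of the last deposited decimal. The number of members at or above the median was 5 to 8, with 5 when the median was taken over the probe sets that stand for genes. The share of all genes was not worked out for these settings, so nothing is read from these numbers. No paired analysis was possible because the clone has a single array and all 3 lines derive from that clone. Without detection calls, levels near or under the array median (Asz1, Stk31, Tex101, Slc25a31, and Taf7l in line 3) could not be set against background.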
